A study of Mus musculus with 5 samples.

Results

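The proteasome genes were taken as the genes whose symbol begins with Psma, Psmb, Psmc, Psmd, Psme, Psmf, or Psmg and a digit, leaving out annotated pseudogenes. Of 19938 genes with a probe set named for them alone, 50 met this rule. The proteasome is the protease that degrades proteins marked with ubiquitin in the cytosol and nucleus, and in neurons it is known for the turnover of synaptic proteins. Its core particle is a barrel of alpha rings (Psma genes) and beta rings (Psmb genes), and the peptide bonds are cut inside the beta rings. A regulatory particle of ATPases (Psmc genes) and other subunits (most Psmd genes) recognizes, unfolds, and feeds in the substrates. Psme genes encode alternative activators of the core, *Psmf1* encodes an inhibitor, and Psmg genes encode chaperones that assemble the core. *Psmd5*, *Psmd9*, and *Psmd10* encode chaperones that assemble the regulatory particle. Of the 50 genes, 2 encode no subunit, activator, inhibitor, or assembly chaperone of the proteasome. These are *Psmc3ip*, whose product acts in meiotic recombination, and *Psme3ip1*, whose product binds the activator PSME3. They were kept, since the rule takes them in, and are named where they matter. The genes of subunits, activators, the inhibitor, and chaperones fell into 11 groups by role.

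The genes were read in retrogradely labeled neurons of the primary somatosensory cortex (S1) of wild-type ICR mice at postnatal day 24, with 1 array for each group. The 3 association groups, in L6b, L5, and L2/3, held neurons labeled from the ipsilateral primary motor cortex (M1). The 2 callosal groups, in L5 and L2/3, held neurons labeled from the contralateral S1. In all 5 groups the tracer was Green RetroBeads, injected 3 days before collection into brains that had been electroporated in utero with a tdTomato plasmid (a red label of L2/3 neurons), and about 1000 labeled cells were pooled per group by laser microdissection. The sources used here do not give the number of animals behind an array. The layer of each value stands in parentheses after it. With 1 array per group there are no replicates and no test, so every difference is a difference between these arrays, and 2-fold is a rule of size. All values are log2 signals minus the median of the array, so that 0 is the array median and a difference of 1 is 2-fold. Each probe set has its own brightness, so levels were compared between arrays for the same gene and not between genes. In these pooled cells a change in the makeup of the captured cells and a change of RNA per cell cannot be told apart.

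Association neurons connect areas of the same hemisphere, callosal neurons connect the hemispheres, and L6b is the deepest cortical layer, a remnant of the embryonic subplate (SP). The markers of the captured cells bear on the labels of the arrays. All 5 L6b/SP markers measured were highest in the L6b array, with *Cplx3* at 5.22 in L6b and between -0.37 and 0.39 in the other arrays. All 5 L2/3 markers were highest in association L2/3. Of 5 L5 markers, *Rbp4* was highest in association L5 (3.76) and *Fezf2* in callosal L5 (2.04), *Etv1* was highest in association L2/3 (2.75), and *Bcl11b* (0.80) and *Pcp4* (6.16) were highest in L6b. *Pcp4* was higher in L5 than in L2/3 by 2.13 in association and 2.81 in callosal neurons. The summed level of 5 glutamatergic markers was 12.8 (L6b), 15.6 (L5), and 15.7 (L2/3) in association neurons and 17.2 (L5) and 18.2 (L2/3) in callosal neurons. *Slc17a7* spanned 3.84 to 4.47, with its lowest value in association L2/3. *Camk2a* was lowest in L6b at 2.41, against 4.41 to 5.75 elsewhere, and *Slc17a6* lay below the array median in L6b at -0.30. *Tbr1* was lowest in L6b as well, at 3.60, against 4.12 to 4.36 elsewhere. *Neurod6* was lowest in association L2/3 (1.29) and stood at 3.08 in L6b, between callosal L5 (3.42) and association L5 (2.79). Markers of other cells also differed between the arrays. The summed log2 level of 6 myelin markers was 15.3 (L6b), 12.8 (L5), and 2.82 (L2/3) in association neurons and 8.99 (L5) and 3.41 (L2/3) in callosal neurons. Of the 6, 3 were highest in L6b, *Mag* (3.96) and *Mobp* (3.83) in association L5, and *Cnp* (2.47) in callosal L5. *Mag* lay below the array median in association L2/3, and *Opalin* in association L5 and in both L2/3 arrays. The summed level of 6 GABAergic markers was 4.43 (L6b), 12.7 (L5), and 16.9 (L2/3) in association neurons and 15.3 (L5) and 12.6 (L2/3) in callosal neurons. Much of the difference was that of *Pvalb*, at -1.38 in L6b, 2.26 in callosal L2/3, and 4.41 to 4.57 in the other arrays. *Gad1*, *Gad2*, and *Sst* were also lowest in L6b, but *Vip* was lowest in association L5 (-0.13) and *Slc32a1* in callosal L5 (1.83). The sums of 5 astrocyte markers (1.36 to 3.69), of 5 microglia markers (3.52 to 5.05), and of 5 endothelial markers (-1.13 to 0.13) spanned less. In these lists *Gfap*, *Flt1*, and *Tek* lay below the median of every array, and *Slc1a3*, *Gja1*, *Cx3cr1*, *Ctss*, *Csf1r*, and *Cldn5* lay above it in every array. The part of these differences in the results on proteasome genes was not tested.

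Of the 50 genes, 48 reached the median of at least 1 array and are the 48 genes of all counts that follow, *Psmc3ip* and *Psme3ip1* among them. The 2 that did not were *Psma8*, an alpha subunit known from the testis, and *Psmb8*, an inducible catalytic subunit. *Psma8* stood at -1.28 (L6b), -1.56 (L5), and -1.68 (L2/3) in association neurons and -1.20 (L5) and -1.53 (L2/3) in callosal neurons. *Psmb8* stood at -0.56 (L6b), -0.51 (L5), and -0.85 (L2/3) in association neurons and -0.29 (L5) and -0.50 (L2/3) in callosal neurons. *Psmb11*, the catalytic subunit of the thymic proteasome, stayed within 0.03 of the median in 4 arrays and stood at 0.29 in L6b. Apart from these and *Psmd5*, *Psmd10*, *Psmg1*, and *Psmg2*, every gene lay above the array median in all 5 arrays. Over the 48 genes the median level was 3.18 (L6b), 3.29 (L5), and 3.32 (L2/3) in association neurons and 3.49 (L5) and 3.13 (L2/3) in callosal neurons. The median over all 12632 genes that reached an array median was between 0.72 and 0.84.

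**Figure D1:**
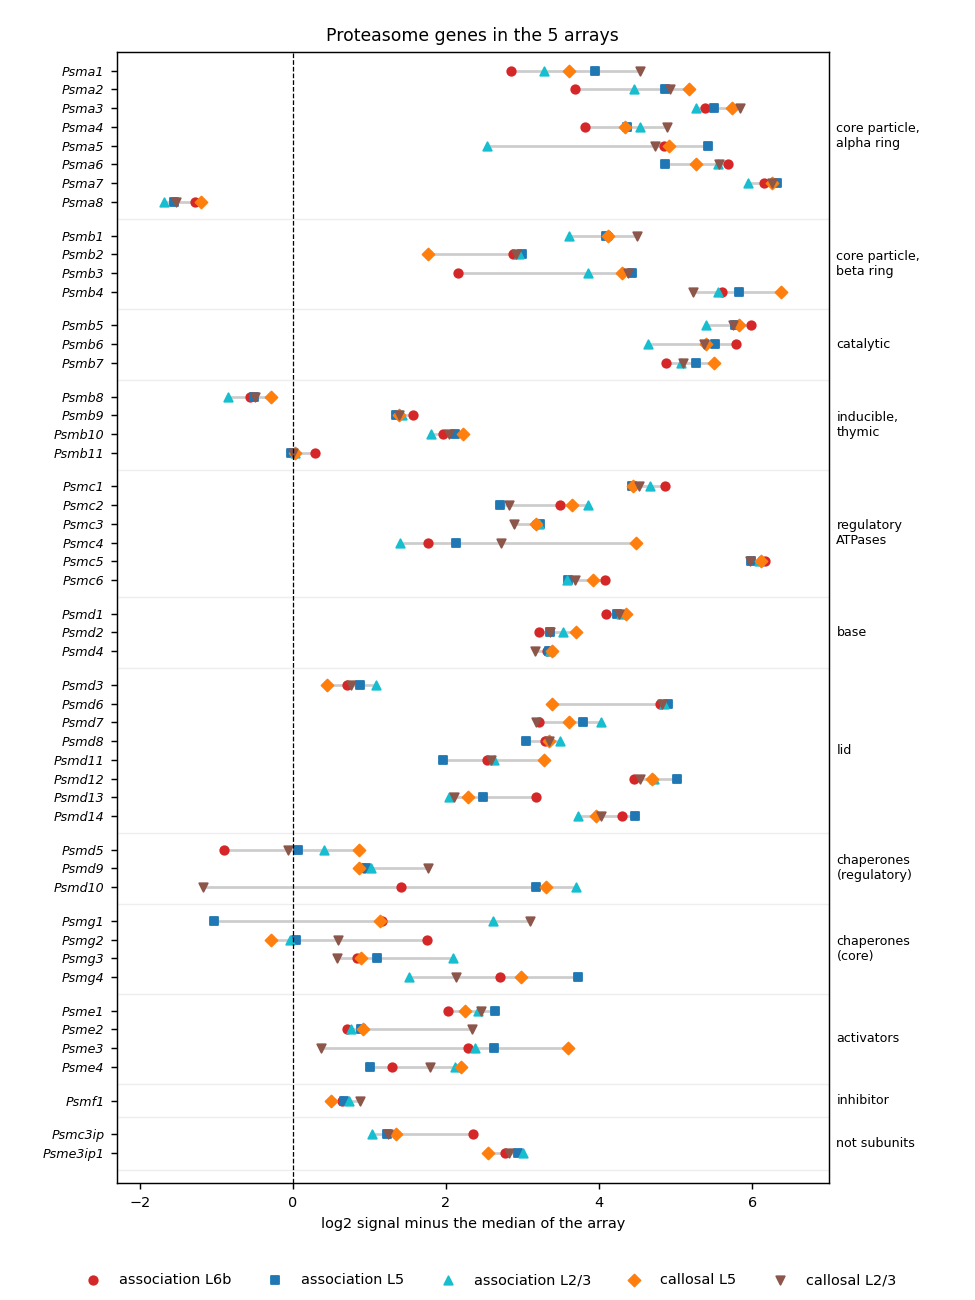
Log2 signal minus the median of the array (horizontal axis) of the 50 genes (vertical axis, grouped by role), 1 point per array and a grey line from the lowest to the highest array. Over the 48 genes that reached an array median, spans run from 0.20 to 4.88. In 11 of them 1 array lies at least 2-fold from each other array, such as *Psmd10* with -1.18 in callosal L2/3 and *Psma5* with 2.53 in association L2/3.

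As a whole, the proteasome genes were shifted by little between arrays. The median difference over the 48 genes was -0.05 for L6b against the mean of the other 4 arrays, beside a median of -0.06 over all 12632 genes. It was -0.13 for L6b minus association L5 and -0.07 for L6b minus association L2/3, beside -0.03 and -0.09 over all genes. For L5 minus L2/3 it was 0.03 in association neurons and 0.09 in callosal neurons, beside -0.06 and 0.00 over all genes. For association minus callosal neurons it was -0.03 in L5 and -0.03 in L2/3, beside -0.03 and 0.03 over all genes. In each pair of arrays the median over all genes equals the offset between the 2 array medians subtracted, which ran from 5.71 to 5.80. These medians over all genes thus give the scaling and no measured shift. Under quantile normalization the median was 0.13 for L6b against the other 4 arrays and 0.06 for L6b minus association L2/3, and with values as deposited both were above 0 (0.01 and 0.03), so that their signs depend on the scaling. Single genes differed by much more than these medians, in both directions in each comparison.

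Between 5 and 11 of the 48 genes were at least 2-fold apart in each comparison, and each count is given beside the share of all 12632 genes. In L6b against association L2/3, 11 genes were apart (22.9%, against 13.4%), 6 of them higher (2.83% of all genes) and 5 lower (10.6% of all genes). In L6b against association L5 it was 8 genes (16.7%, against 10.7%), 3 higher (3.5% of all) and 5 lower (7.16% of all). In L6b against the mean of the other 4 arrays it was 5 genes (10.4%, against 8.99%), 2 higher (2.44% of all) and 3 lower (6.55% of all). Without association L5 in that mean it was 8 genes (16.7%, against 9.6%), 3 higher (2.41% of all) and 5 lower (7.2% of all). In each of these comparisons proteasome genes lay on both sides. Within association neurons, L5 against L2/3 set 5 genes apart (10.4%, against 10.8%), 2 higher (3.48% of all) and 3 lower (7.36% of all). Within callosal neurons it set 8 apart (16.7%, against 8.6%), 4 higher (4.08% of all) and 4 lower (4.52% of all). Over the 6 pairs of arrays, 22 genes were apart at least once (45.8%, against 26.8%) and 26 never. Association against callosal neurons set 6 genes apart in L5 (12.5%, against 8.46%), 2 higher (3.49% of all) and 4 lower (4.97% of all). In L2/3 the same contrast set 8 apart (16.7%, against 8.55%), 4 higher (5.07% of all) and 4 lower (3.48% of all). The same counts were taken among the genes whose mean over the 5 arrays reached the 75th percentile of the arrays, 4989 of all genes and 40 of the 48. Of these 40, 8 were apart in L6b against association L2/3 (22.6% of the 4989), 7 in L6b against association L5 (19.2%), and 3 in L6b against the other 4 arrays (17.1%). Between L5 and L2/3, 5 of the 40 were apart in association neurons (12.5%, against 16.5%) and 7 in callosal neurons (17.5%, against 13.1%). Between association and callosal neurons, 6 of the 40 were apart in L5 (15.0%, against 13.8%) and 6 in L2/3 (15.0%, against 11.5%).

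**Figure D2:**
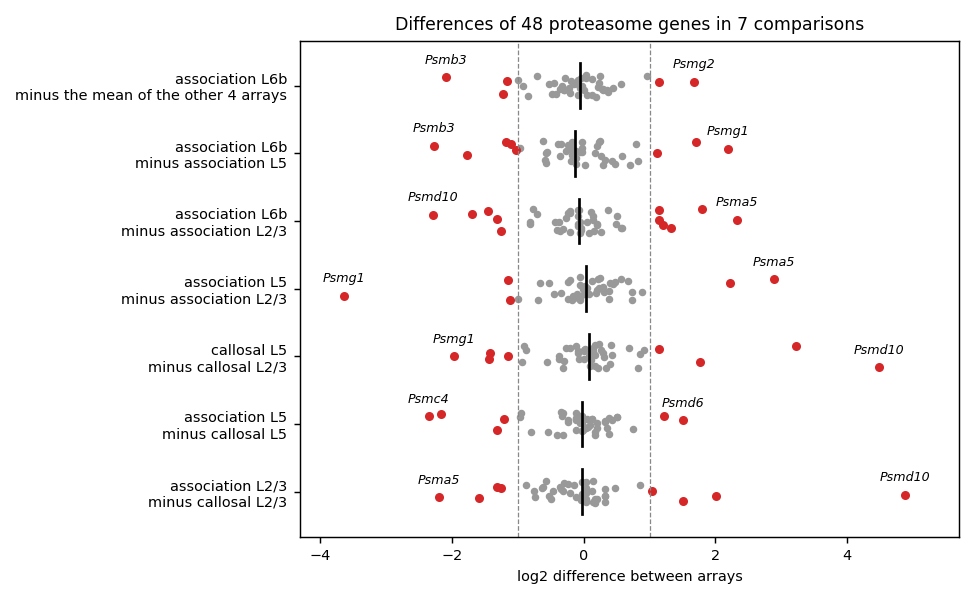
Log2 difference between arrays (horizontal axis) of the 48 genes in the 7 comparisons (vertical axis), 1 point per gene, with black bars at the medians and dashed lines at 2-fold. Genes at least 2-fold apart are red, the lowest and highest gene of each comparison are named, and every median lies between -0.13 and 0.09.

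Over the 5 arrays, 23 of the 48 genes spanned at least 2-fold between their lowest and highest array (47.9%, against 29.5% of all genes) and 8 at least 4-fold (16.7%, against 9.75%). Among genes whose mean reached the 75th percentile, 19 of 40 proteasome genes spanned 2-fold (47.5%, against 46.5%) and 7 spanned 4-fold (17.5%, against 16.3%). The median span was 0.90 for the proteasome genes and 0.53 for all genes. It was 0.56 for 58 cytosolic ribosomal protein genes, 0.52 for 80 oxidative phosphorylation genes, and 0.60 for 8 genes of the CCT chaperonin. At least 2-fold was spanned by 9 ribosomal (15.5%), 18 oxidative phosphorylation (22.5%), and 3 chaperonin genes (37.5%). The lists also differed in level, with median means of 3.30 (proteasome), 5.62 (ribosomal), 5.04 (oxidative phosphorylation), and 3.73 (chaperonin). The part of level in these spans was not tested. No test of the difference between these lists was possible.

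Often 1 array differed from all others. In 11 of the 48 genes, 1 array stood at least 2-fold above or below each of the other 4 (22.9%, against 11.9% of all genes), and in 9 of the 40 with a mean past the 75th percentile (22.5%, against 17.6%). In 7 of the 11 genes that array was the lowest (14.6%, against 4.61% of all genes), and all 7 are among the 40 (17.5%, against 10.5%). The 7 were *Psma5* in association L2/3, *Psmb2* and *Psmd6* in callosal L5, *Psmb3* in L6b, *Psmd10* and *Psme3* in callosal L2/3, and *Psmg1* in association L5. In 4 genes it was the highest (8.33%, against 7.88% of all genes), 2 of them among the 40 (5.0%, against 8.16% of all genes past that mean). The 4 were *Psmg2* and *Psmc3ip* in L6b, *Psmc4* in callosal L5, and *Psme2* in callosal L2/3. *Psmc3ip* lay exactly at 2-fold above the next array, and *Psmg3*, 0.99 above the next in association L2/3, and *Psme3*, 0.96 above the next in callosal L5, lay just outside it. Each of the 5 arrays was the odd one for at least 1 gene. Over all genes, the share at least 2-fold above each other array was 1.26% for L6b, 2.34% for association L2/3, 1.67% for callosal L2/3, and 1.31% each for association and callosal L5. The share below each other array was 2.82% for L6b, 0.823% for association L5, 0.158% for association L2/3, 0.356% for callosal L5, and 0.451% for callosal L2/3.

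Without a threshold, no array held the highest or the lowest value for most of the 48 genes. L6b was highest for 11 genes (21.3% of all genes), association L5 for 10 (16.8% of all), association L2/3 for 7 (27.4% of all), callosal L5 for 12 (15.4% of all), and callosal L2/3 for 8 (15.0% of all). L6b was lowest for 11 genes (30.5% of all), association L5 for 9 (19.6% of all), association L2/3 for 13 (19.6% of all), callosal L5 for 7 (11.9% of all), and callosal L2/3 for 8 (15.5% of all). Where arrays held identical deposited values (at least 2 arrays in 60.6% of probe sets), the subtracted array medians alone set their order. Such ties put association L2/3 (median 5.71) above and L6b (5.80) below the others. *Psmd4*, deposited at 9.12 in L6b, association L5, and callosal L5, counts as highest in callosal L5. The part of ties in these counts was not tested.

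In the alpha rings, whose N-termini form the gate of the core, *Psma5* was set apart. *Psma5* stood at 4.85 (L6b), 5.42 (L5), and 2.53 (L2/3) in association neurons and 4.91 (L5) and 4.73 (L2/3) in callosal neurons. It was low in association L2/3 alone, 2.20 below the next array, and the remaining arrays lay within 0.69 of each other. Association minus callosal was -2.20 in L2/3 and 0.51 in L5. A second probe set for *Psma5* was also lowest in association L2/3, with 3.15 (L6b), 3.34 (L5), and 0.92 (L2/3) in association neurons and 3.23 (L5) and 3.19 (L2/3) in callosal neurons.

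*Psma1* and *Psma2* were lowest in L6b. *Psma1* stood at 2.85 (L6b), 3.95 (L5), and 3.28 (L2/3) in association neurons and 3.60 (L5) and 4.54 (L2/3) in callosal neurons. *Psma2* stood at 3.69 (L6b), 4.86 (L5), and 4.46 (L2/3) in association neurons and 5.18 (L5) and 4.92 (L2/3) in callosal neurons. L6b minus association L5 was -1.10 for *Psma1*, or -0.95 under quantile normalization, and -1.17 for *Psma2*. *Psma4* was lowest in L6b as well, at 3.82, against 4.34 to 4.89 in the other arrays. The other alpha genes varied less or in another way. *Psma6* was highest in L6b (5.69) and lowest in association L5 (4.86). *Psma7* stood at 6.16 (L6b), 6.33 (L5), and 5.95 (L2/3) in association neurons and 6.26 (L5) and 6.26 (L2/3) in callosal neurons, and *Psma3*, read by 3 probe sets, spanned 5.27 to 5.84. The low values in L6b were therefore not shared by the ring as a whole.

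Of the beta ring genes without catalytic activity, *Psmb3* was low in L6b. *Psmb3* stood at 2.16 (L6b), 4.43 (L5), and 3.86 (L2/3) in association neurons and 4.30 (L5) and 4.38 (L2/3) in callosal neurons. Relative to the mean of the other 4 arrays L6b was at -2.08, and the nearest array was 1.70 above L6b. The second probe set of *Psmb3* stood at -0.59 (L6b), 3.19 (L5), and 2.75 (L2/3) in association neurons and 2.94 (L5) and 3.56 (L2/3) in callosal neurons. It too was lowest in L6b, by 3.34 relative to the next array, and its level there was below the array median. The size of the difference thus depends on the probe set, and its direction does not.

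*Psmb2* was low in callosal L5 alone. It stood at 2.88 (L6b), 2.99 (L5), and 2.95 (L2/3) in association neurons and 1.77 (L5) and 2.92 (L2/3) in callosal neurons. Apart from callosal L5, the arrays lay within 0.11 of each other. *Psmb4* was highest in the same array, with 5.60 (L6b), 5.83 (L5), and 5.55 (L2/3) in association neurons and 6.37 (L5) and 5.23 (L2/3) in callosal neurons. *Psmb1* ranged from 3.61 in association L2/3 to 4.49 in callosal L2/3.

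**Figure D3:**
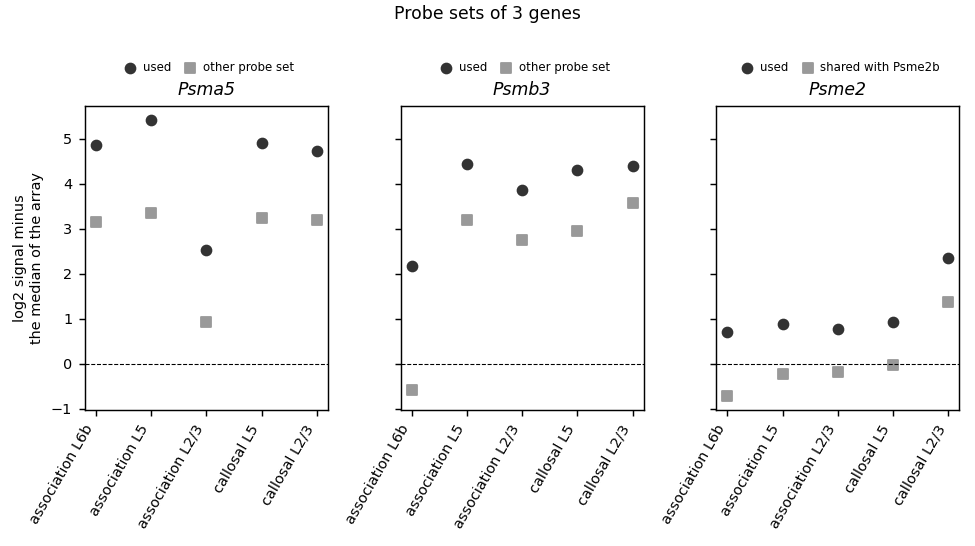
Log2 signal minus the median of the array (vertical axis) in the 5 arrays (horizontal axis) for the probe sets of *Psma5*, *Psmb3*, and *Psme2*, with the probe set used in black and the other in grey. The odd array of each gene, association L2/3, association L6b, and callosal L2/3, stands out in both probe sets, at 2.53 and 0.92 for *Psma5*.

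Of the catalytic genes, *Psmb6* alone spanned 2-fold. *Psmb5*, whose product cuts after hydrophobic residues, stood at 5.99 (L6b), 5.78 (L5), and 5.40 (L2/3) in association neurons and 5.83 (L5) and 5.75 (L2/3) in callosal neurons. *Psmb6*, whose product cuts after acidic residues, stood at 5.79 (L6b), 5.52 (L5), and 4.64 (L2/3) in association neurons and 5.39 (L5) and 5.37 (L2/3) in callosal neurons. *Psmb7*, whose product cuts after basic residues, was lowest in L6b and stood at 4.87 (L6b), 5.26 (L5), and 5.07 (L2/3) in association neurons and 5.50 (L5) and 5.10 (L2/3) in callosal neurons. *Psmb5* and *Psmb6* were highest in L6b and lowest in association L2/3, and only *Psmb6* was at least 2-fold apart, by 1.15 for L6b minus association L2/3.

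The inducible counterparts, which replace the catalytic subunits in the immunoproteasome of immune cells and of cells exposed to interferon, each spanned less than 2-fold. *Psmb9*, the counterpart of *Psmb6*, stood at 1.57 (L6b), 1.34 (L5), and 1.42 (L2/3) in association neurons and at 1.39 in both callosal arrays. *Psmb10*, the counterpart of *Psmb7*, stood at 1.96 (L6b), 2.11 (L5), and 1.80 (L2/3) in association neurons and 2.22 (L5) and 2.04 (L2/3) in callosal neurons. *Psmb8*, the counterpart of *Psmb5*, lay below the array median in all 5 arrays. Of the microglia markers, *Csf1r* spanned 0.16 to 0.35, *Cx3cr1* spanned 1.27 to 1.40, *P2ry12* spanned -0.28 to 0.09, *Ctss* spanned 1.41 to 2.18, and *Aif1* spanned -0.13 to 1.32 with its highest value in callosal L5, and their part in these values was not tested.

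The ATPases form the ring that unfolds substrates and opens the gate of the core. *Psmc4* was far higher in callosal L5 than elsewhere. It stood at 1.77 (L6b), 2.13 (L5), and 1.40 (L2/3) in association neurons and 4.48 (L5) and 2.72 (L2/3) in callosal neurons. Both callosal arrays lay above the 3 association arrays. Association minus callosal was -2.35 in L5 and -1.32 in L2/3, and L5 minus L2/3 was 0.73 in association and 1.76 in callosal neurons. *Psmc2* stood at 3.49 (L6b), 2.70 (L5), and 3.85 (L2/3) in association neurons and 3.65 (L5) and 2.82 (L2/3) in callosal neurons, so that association L5 and callosal L2/3 were low together. Its L5 minus L2/3 difference was -1.15 in association and 0.83 in callosal neurons. The probe sets used for the other ATPase genes spanned less than 2-fold. *Psmc5* had the smallest span of the 48 genes, with 6.17 (L6b), 5.99 (L5), and 6.09 (L2/3) in association neurons and 6.11 (L5) and 5.97 (L2/3) in callosal neurons. *Psmc3* spanned 2.89 to 3.23. *Psmc6* (4.07) and *Psmc1* (4.86) were highest in L6b by 0.15 and 0.20 relative to the next array. The second probe set of *Psmc1* was highest in L6b as well, at 4.32, against 3.05 to 3.91 in the other arrays, and its difference of 1.15 for L6b minus association L5 was past 2-fold, against 0.43 for the probe set used.

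The other base genes were level. *Psmd1*, which encodes with *Psmd2* the large scaffold subunits of the base, stood at 4.09 (L6b), 4.23 (L5), and 4.29 (L2/3) in association neurons and 4.35 (L5) and 4.26 (L2/3) in callosal neurons. *Psmd4*, which encodes a ubiquitin receptor, stood at 3.32 (L6b), 3.35 (L5), and 3.36 (L2/3) in association neurons and 3.38 (L5) and 3.16 (L2/3) in callosal neurons. *Psmd2* spanned 3.21 to 3.70, and its second probe set 3.04 to 3.77. Callosal L5 was highest in both, with L5 minus L2/3 in callosal neurons at 0.34 and 0.72. The lid carries the deubiquitinating enzyme encoded by *Psmd14*, which ranged from 3.73 in association L2/3 to 4.47 in association L5. Of the 8 lid genes, 3 spanned at least 2-fold. *Psmd6* stood at 4.79 (L6b), 4.90 (L5), and 4.85 (L2/3) in association neurons and 3.39 (L5) and 4.82 (L2/3) in callosal neurons. As with *Psmb2*, callosal L5 alone was low, 1.40 below the next array, and the remaining arrays lay within 0.11.

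*Psmd11*, a lid gene whose product contacts the core, stood at 2.54 (L6b), 1.96 (L5), and 2.62 (L2/3) in association neurons and 3.28 (L5) and 2.59 (L2/3) in callosal neurons. Association minus callosal in L5 was -1.32. *Psmd13* stood at 3.18 (L6b), 2.48 (L5), and 2.04 (L2/3) in association neurons and 2.28 (L5) and 2.10 (L2/3) in callosal neurons. It was highest in L6b, by 0.70 relative to the next array and by 1.14 relative to association L2/3. The other lid genes, *Psmd3*, *Psmd7*, *Psmd8*, and *Psmd12*, had spans of 0.45 to 0.85. *Psmd3* stood at 0.70 (L6b), 0.87 (L5), and 1.08 (L2/3) in association neurons and 0.44 (L5) and 0.76 (L2/3) in callosal neurons, and *Psmd12* stood at 4.45 (L6b), 5.02 (L5), and 4.72 (L2/3) in association neurons and 4.69 (L5) and 4.54 (L2/3) in callosal neurons.

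By median span, the assembly chaperones came first, in small groups with 1 probe set per gene. All 4 chaperones of the core and 2 of the 3 chaperones of the regulatory particle spanned at least 2-fold. Of all genes 29.5% did, and 46.5% of those with a mean past the 75th percentile. The median spans of the chaperone groups were 2.13 and 1.76 log2, against 0.26 to 1.42 in the other groups by role. Of 4 activators 3 spanned 2-fold (median span 1.42), as did 3 of the 4 beta ring genes without catalytic activity (1.18). *Psmd5*, *Psmd10*, *Psmg1*, and *Psmg2* lay below the array median in at least 1 array, so their spans rest in part on dim signals. *Psmd10*, also named gankyrin, encodes a chaperone that binds the ATPase PSMC4. It had the largest span of the 48 genes, 4.88. *Psmd10* stood at 1.41 (L6b), 3.18 (L5), and 3.70 (L2/3) in association neurons and 3.30 (L5) and -1.18 (L2/3) in callosal neurons. Callosal L2/3 was 2.59 below the next array, and L6b was the next lowest. Because callosal L2/3 was below the array median, the size of the differences of 4.88 (association minus callosal in L2/3) and 4.48 (L5 minus L2/3 in callosal neurons) rests on a dim signal. *Psmd5* stood at -0.90 (L6b), 0.06 (L5), and 0.41 (L2/3) in association neurons and 0.86 (L5) and -0.06 (L2/3) in callosal neurons, lowest in L6b at -1.22 relative to the mean of the other arrays. *Psmd9* was highest in callosal L2/3 at 1.77 and lay at 0.86 to 1.02 in the other arrays.

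*Psmg1* and *Psmg2* encode the partners of a dimer that assembles the alpha ring. *Psmg1* stood at 1.16 (L6b), -1.03 (L5), and 2.61 (L2/3) in association neurons and 1.13 (L5) and 3.10 (L2/3) in callosal neurons. It was lower in L5 than in L2/3 in both projections, with L5 minus L2/3 at -3.64 in association and -1.97 in callosal neurons. It was also lower in association than in callosal neurons in both layers, with differences of -2.16 in L5 and -0.49 in L2/3. The signal in association L5 was below the array median. *Psmg2* stood at 1.75 (L6b), 0.04 (L5), and -0.04 (L2/3) in association neurons and -0.29 (L5) and 0.59 (L2/3) in callosal neurons. It was highest in L6b, by 1.16 relative to the next array, and in the other arrays lay between -0.29 and 0.59. The partners thus did not vary together over the 5 arrays.

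*Psmg3* and *Psmg4* encode a second dimer of the same pathway. *Psmg3* stood at 0.83 (L6b), 1.10 (L5), and 2.09 (L2/3) in association neurons and 0.89 (L5) and 0.58 (L2/3) in callosal neurons. *Psmg4* stood at 2.71 (L6b), 3.73 (L5), and 1.51 (L2/3) in association neurons and 2.98 (L5) and 2.13 (L2/3) in callosal neurons. *Psmg3* was highest in the array where *Psmg4* was lowest, association L2/3. L5 minus L2/3 of *Psmg4* was 2.22 in association and 0.85 in callosal neurons, and L6b minus association L5 was -1.02, or -0.86 under quantile normalization.

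**Figure D4:**
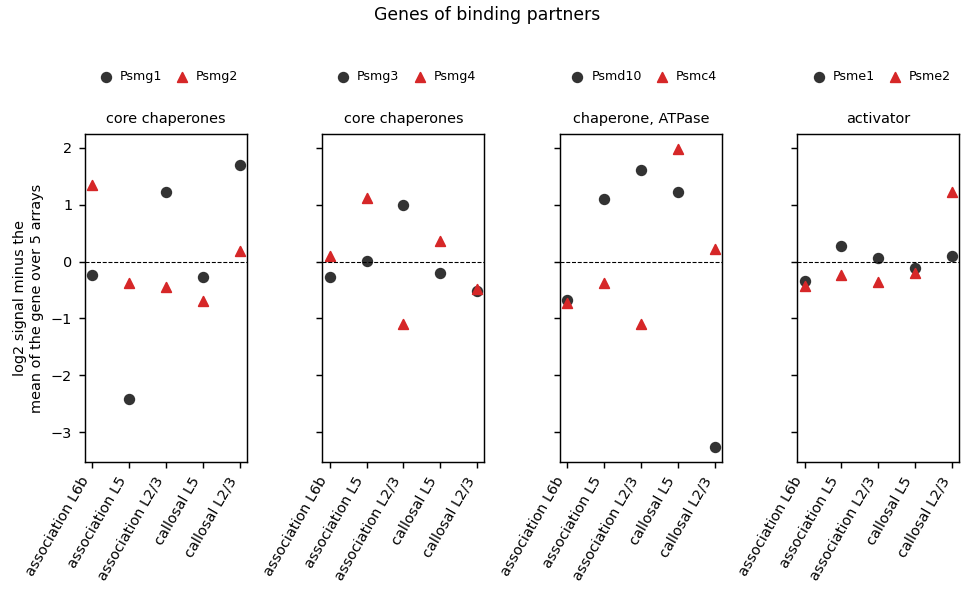
Log2 signal minus the mean of the gene over the 5 arrays (vertical axis) in the 5 arrays (horizontal axis) for genes whose products bind each other, 1 panel per pair. In no pair do the points of both genes follow each other across all arrays, as with *Psmg3* and *Psmg4*, which part in association L2/3.

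Of the activators, *Psme3* and *Psme2* were set apart in callosal L2/3, in opposite directions. *Psme3* encodes the activator PA28 gamma of the nucleus. It stood at 2.29 (L6b), 2.63 (L5), and 2.38 (L2/3) in association neurons and 3.59 (L5) and 0.37 (L2/3) in callosal neurons. The association arrays lay within 0.34 of each other, and the callosal arrays were the highest and the lowest, 3.22 apart. *Psme2* encodes, with *Psme1*, an activator induced by interferon. *Psme2* stood at 0.70 (L6b), 0.89 (L5), and 0.76 (L2/3) in association neurons and 0.92 (L5) and 2.34 (L2/3) in callosal neurons. A probe set shared with the related gene *Psme2b*, which was not used to name a gene, was also highest in callosal L2/3, at 1.36, against -0.72 to -0.03 in the other arrays. *Psme1* did not follow, with 2.02 (L6b), 2.64 (L5), and 2.42 (L2/3) in association neurons and 2.25 (L5) and 2.46 (L2/3) in callosal neurons. *Psme4*, the gene of the nuclear activator PA200, stood at 1.29 (L6b), 1.0 (L5), and 2.11 (L2/3) in association neurons and 2.20 (L5) and 1.79 (L2/3) in callosal neurons. It was lowest in association L5, at -1.20 relative to callosal L5 and at -1.11 relative to association L2/3, or -0.97 under quantile normalization. The inhibitor gene *Psmf1* stood at 0.64 (L6b), 0.67 (L5), and 0.73 (L2/3) in association neurons and 0.49 (L5) and 0.87 (L2/3) in callosal neurons.

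The genes taken in by their symbols alone behaved in their own way. *Psmc3ip* was highest in L6b and stood at 2.35 (L6b), 1.23 (L5), and 1.03 (L2/3) in association neurons and 1.35 (L5) and 1.24 (L2/3) in callosal neurons. *Psme3ip1* spanned 2.55 to 3.00. Without them, 1 gene, *Psmg2*, was past 2-fold above the mean of the other arrays in L6b.

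Other genes of the pathway were read against the 29.5% of all genes that spanned 2-fold. Of 10 genes of regulators of proteasome expression, 8 reached an array median and 2 spanned at least 2-fold, *Ngly1* and *Nfyb*. Of 14 genes of proteins that work with the proteasome, 1 did, and the 1 gene measured of the list of ubiquitin genes, *Uchl1*, did too. The 1 of the 14 was *Ube3c*, which encodes a ubiquitin ligase of the proteasome, with 1.24 (L6b), 3.14 (L5), and 2.23 (L2/3) in association neurons and 1.19 (L5) and 2.14 (L2/3) in callosal neurons. *Pomp*, which encodes the protein that guides the maturation of the core, spanned 5.87 to 6.12, and *Sem1*, a small lid subunit, spanned 5.53 to 5.84. *Uchl1*, which encodes a neuronal ubiquitin hydrolase, stood at 4.31 (L6b), 4.75 (L5), and 4.40 (L2/3) in association neurons and 5.34 (L5) and 4.77 (L2/3) in callosal neurons. The transcription factor gene *Nfe2l1*, whose product raises proteasome gene expression when the protease is inhibited, was level at 2.41 to 2.73. *Ngly1*, which encodes the deglycosylase that activates it, stood at -0.22 (L6b), 0.90 (L5), and 0.82 (L2/3) in association neurons and 0.31 (L5) and 0.66 (L2/3) in callosal neurons. *Nfyb*, which encodes a subunit of the CCAAT-binding factor NF-Y, stood at 0.67 (L6b), 1.34 (L5), and 1.95 (L2/3) in association neurons and 2.87 (L5) and 1.54 (L2/3) in callosal neurons.

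NFE2L1 binds, with small Maf proteins, to the antioxidant response element, and its core was looked for as TGACNNNGC on both strands of the promoter windows, 250 bases before to 50 bases after each start. RefSeq windows (GRCm38.p6) were at hand for 42 of the 50 genes, and 6 of them held the core (14.3%, against 14.0% of all 27025 genes with a window). The share was thus close to that of all genes. The 6 genes were *Psmb5*, *Psmb6*, *Psmc6*, *Psmd9*, *Psmd12*, and *Psme4*. The sites of the catalytic genes and of the 1 chaperone gene that held the core are shown in the direction of the gene, with the core in capitals, to show how far the letters between and around the fixed ones differ.
Psmb5, chr14:54618024-54618052, minus strand: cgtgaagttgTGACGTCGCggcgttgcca
Psmb6, chr11:70525338-70525366, plus strand: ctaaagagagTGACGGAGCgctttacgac
Psmd9, chr5:123228149-123228177, plus strand: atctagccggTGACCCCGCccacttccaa
Relative to the start, the first base of the core lay at -47 in *Psmb5*, -9 in *Psmb6*, and -31 in *Psmd9*. In *Psmc6*, *Psmd12*, and *Psme4*, not shown, the core lay on the opposite strand. Of the 6 genes, *Psmb5*, *Psmb6*, and *Psmc6* were highest in L6b and *Psmd9* in callosal L2/3. *Psmd12* was highest in association L5 and lowest in L6b, and *Psme4* was highest in callosal L5. A match of letters does not show binding.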

How the data were processed

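The arrays (GeneChip Mouse Gene 1.0 ST) were processed by the authors, who deposited 1 table of log2 signals for 35556 probe sets. Affymetrix Expression Console stands in the submitters' processing notes, without a version. How probes were summarised was not given in the sources used here. That the scale is log2 was read from the values, 1.11 to 14.2. The authors' methods name log transformation, global normalization, and centering. The values are not centered per gene, and the array medians were 5.71 to 5.80. Any pair of arrays correlated at 0.918 to 0.938 (Pearson, over the probe sets). Identical deposited values in at least 2 arrays occurred in 60.6% of probe sets and in 22 of the 50 proteasome genes.

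Names came from an annotation of the platform, which gave 21789 probe sets a single symbol. Another 1621 had several symbols and named no gene. Of the 50 genes, 45 had 1 probe set and 5 had several, and the 1 with the highest mean was used. Every signal was then set relative to the median of its array. Only genes at or above that median in 1 array or more (12632 of 19938) were compared, with Python 3.11.15 and pandas 2.3.3. A probe set can also read copies of a gene elsewhere in the genome, which these values cannot tell apart. No test was possible with 1 array per group, which also limits the precision of every value, and no depth applies to arrays. The steps were tested on simulated data with planted differences. Alternatives were values as deposited, quantile normalization, the mean of the probe sets of a gene, no filter, a filter at the 75th percentile, and, for L6b against the other arrays, leaving out each of those. The members, the lists, and the roles were chosen with earlier results of these data known. Genes given with every array were those at least 2-fold apart in any comparison, the catalytic genes with their inducible counterparts, those set apart in 1 array, and the lowest and highest of each role group by mean signal. Of the other pathway genes, those at least 2-fold apart were named, and *Pomp*, *Sem1*, *Uchl1*, and *Nfe2l1* were added after their values were seen.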

Additional observations from a re-analysis of the deposited data

How the results depend on the processing

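No paired analysis was possible because each group has 1 array, with no replicate numbers to pair. Under quantile normalization the median difference of the proteasome genes was 0.06 for L6b minus association L2/3, -0.015 for L6b minus association L5, and 0.13 for L6b set against the mean of the other 4, each a move of over 0.1 log2. The medians of all genes were 0.03, 0.00, and 0.00 in these comparisons under this normalization. The median against association L5 stayed below 0 with every scaling, and the other medians of L6b, below 0 with array medians subtracted, were above 0 under quantile normalization and as deposited (0.03 and 0.01). The count of genes at least 2-fold apart between L6b and the mean of the others was 8 (3 higher, 5 lower) without association L5 in that mean, against 5 with it. The cause of these moves was not tested. Of 92 values of medians and counts, 88 stayed within 0.1 log2 or within 1.5 times. Leaving out *Psmc3ip* and *Psme3ip1* and the set of genes past the 75th percentile by their mean were chosen after the values were seen. Of 51 differences of single genes of at least 2-fold, 0 changed direction under any alternative, and 3 came below 2-fold in at least 1, those of *Psma1* and *Psmg4* (L6b minus association L5) and of *Psme4* (association L5 minus association L2/3). *Psmd10*, *Psmg1*, *Psmg2*, *Psmd5*, and the second probe set of *Psmb3* lay below the array median in at least 1 array, where dim signals limit the size of a difference.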
